A study of Mus musculus with 12 samples.

Results

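Expression of 5 mouse fatty acid-binding protein genes, Fabp1, Fabp3, Fabp4, Fabp5 and Fabp7, was examined across liver, cortex and cerebellum. The members were all probe sets, groups of short oligonucleotides for a transcript, whose platform annotation gave a single gene symbol and that symbol was one of these 5. The rule found 6 probe sets, 2 for Fabp1 (called first and second, the first being the brighter) and 1 for each other gene, among 12422 probe sets that stood for 8251 named genes. All RNA came from 1 adult mouse of strain NMR-1, and liver, cortex and cerebellum each had 2 groups. In the 3X groups, 1 ng of RNA went through 3 linear amplifications with the RiboAmp HS kit, in vitro transcription steps that copy RNA in proportion to its amount, on 3 arrays per tissue that were technical replicates. In the 1X groups, 5 µg of RNA went through 1 linear amplification by the standard Affymetrix protocol, on 1 array per tissue. All p-values therefore measure the spread between these arrays and not between mice, and 3X differs from 1X in input, kit and amplification rounds at once.

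By RefSeq on build GRCm38.p6, Fabp1 lies at chr6:71199879-71205034, Fabp3 at chr4:130308738-130315463 and Fabp7 at chr10:57784923-57788450. Fabp4 (chr3:10204342-10208616) and Fabp5 (chr3:10012585-10016610) share chromosome 3. The signals are summaries of probes over a transcript and do not resolve exons or untranslated regions.

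Fatty acid-binding proteins are small cytosolic proteins that hold long-chain fatty acids and related lipids in a barrel-shaped pocket and carry them to membranes, mitochondria, peroxisomes and the nucleus, where several of them hand ligands to the peroxisome proliferator-activated receptors (PPARs). They are named for the tissue in which each was first found. Fabp1 is the liver form, abundant in hepatocytes and also made in intestine. Fabp3 is the heart form, also made by neurons of the adult brain. Fabp4 is the adipocyte form, also found in capillary endothelium and macrophages. Fabp5 is the epidermal form, which many tissues express, and Fabp7 is the brain form of radial glia and astrocytes.

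Signals are the authors' log2 values, and the array medians lay between 3.45 and 3.48. No detection call exists for these values, so a signal near or below the median cannot be told from background. A signal above the median is not shown to be free of background either. Hepatocyte and neuron markers followed the labels, while 5 of 11 kidney markers were lower in cortex than in cerebellum (given with that comparison). Of 11 measured hepatocyte markers 10 were higher in liver, against 8.17% of all probe sets. Of 10 neuron markers 7 were lower in liver, against 12.3% of all. Liver replicate 3 at 3X stood apart: its Pearson correlation with the 1X liver array over all probe sets was 0.928, against 0.894 and 0.893 for replicates 1 and 2. Its mean hepatocyte marker signal was 9.51, against 8.97 and 8.77 in replicates 1 and 2. Results that move with this array are given with and without it.

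The family split by tissue. Fabp1 and Fabp5 were higher in liver, Fabp7 and Fabp3 were lower in liver than in the brain regions, and Fabp4 was not called. Here a call is a limma adjusted p under 0.05 (Benjamini-Hochberg over all 12422 probe sets), and differences on the log2 scale carry the standard error (SE) of the fit. Liver at 3X differed from the mean of cortex and cerebellum for 5 of the 6 members, 3 higher and 2 lower, where 20.4% of the 12422 probe sets passed (8.17% higher and 12.3% lower). The same 5 showed no overlap between the 3 liver arrays and the 6 brain arrays, as did 20.4% of all probe sets. Set against single regions, 5 of 6 passed and did not overlap in both cases, where 16.8% of all probe sets passed against cortex (30.5% without overlap) and 16.6% against cerebellum (30.0% without overlap). The count was 5 in each fit that left out 1 of the 9 arrays, where 2008 to 2905 of all probe sets were called. It was 3 when signals below 3 were raised to 3, where 1433 of all probe sets were called, against 2537 in the main fit. In that setting Fabp3 (adjusted p = 0.0503) and Fabp5 (0.0662) missed the threshold with differences that did not move, since none of their signals was below 3.

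**Figure D1:**
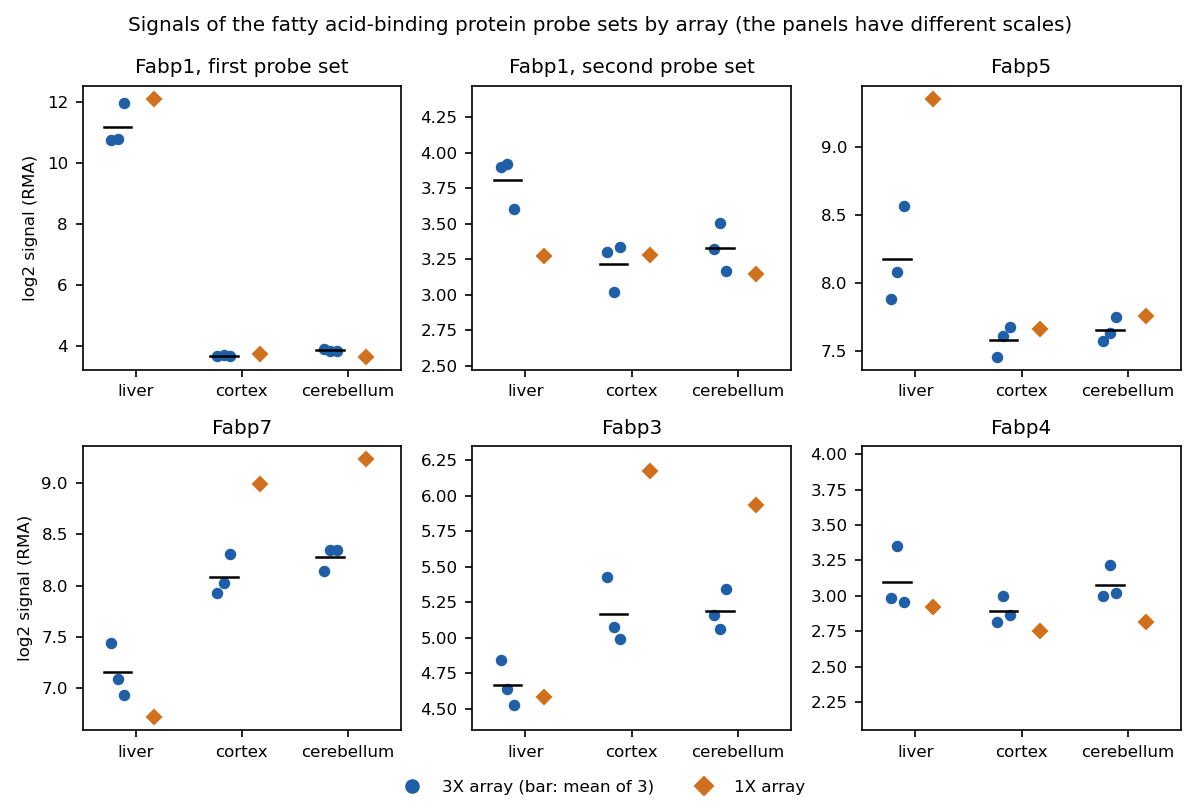
Log2 signal (vertical axis) of each of the 6 probe sets on every array, by tissue (horizontal axis), with 3X arrays as circles, their mean of 3 as a bar, and the 1X array as a diamond. The first Fabp1 probe set lies between 10.74 and 12.10 in liver and between 3.65 and 3.91 in brain, while Fabp7 and Fabp3 are lower on every liver array than on every brain array.

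Promoter sequences were read for the pair of genes with the clearest opposite patterns, Fabp1 and Fabp7, to set the sequence before the gene beside its tissue pattern. RefSeq promoter windows of build GRCm38.p6 were used for 3 of the 5 genes (Fabp1, Fabp3 and Fabp7). Both sequences below run 5′ to 3′ on the plus strand and hold the 250 bases before the annotated start, chr6:71199629-71199878 for Fabp1 and chr10:57784673-57784922 for Fabp7. Capitals mark matches to motifs searched on both strands, a list written after the sequences had been read.
Fabp1: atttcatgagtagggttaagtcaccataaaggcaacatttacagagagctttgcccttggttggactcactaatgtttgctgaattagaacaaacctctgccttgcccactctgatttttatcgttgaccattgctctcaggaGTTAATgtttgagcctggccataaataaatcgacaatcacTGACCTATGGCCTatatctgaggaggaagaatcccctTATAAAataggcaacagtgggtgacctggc
Fabp7: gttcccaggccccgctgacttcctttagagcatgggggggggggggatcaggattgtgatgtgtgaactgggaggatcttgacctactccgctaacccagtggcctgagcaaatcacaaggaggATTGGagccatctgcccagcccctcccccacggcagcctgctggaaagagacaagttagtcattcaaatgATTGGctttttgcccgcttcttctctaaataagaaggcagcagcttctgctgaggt
The Fabp1 window held AGGNCA and AGGTCA with 1 base between them, a pattern of the direct repeat bound by PPARs with RXR, on the reverse strand from 67 to 55 bases before the start, and 0.0822% of 32851 promoter windows of the same length held it. It also held GTTAAT, a core of sites for hepatocyte nuclear factor 1, from 107 to 102 bases before the start (6.43% of windows), and TATAAA from 30 to 25 bases before it (12.4% of windows). The Fabp7 window held CCAAT on the reverse strand, from 126 to 122 and from 56 to 52 bases before the start (33.8% of windows held it at least once). GGGCGG, present in 32.7% of windows, was not in these windows. No match in the 2 windows overlapped another. The Fabp3 window, on chromosome 4, had a GC content of 64.8%, against 42.8% for Fabp1, 54.8% for Fabp7 and a median of 52.4% over all windows, and none of these motifs was found in it. Because the motifs were written with the sequences in view, the shares of windows are not a test of rarity. These matches are descriptions of letters, and binding was not measured.

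Fabp1 had the widest tissue difference of the family. Its first probe set had signals of 10.74, 10.80 and 11.97 on the 3X liver arrays, against 3.68, 3.70 and 3.69 in cortex and 3.91, 3.83 and 3.83 in cerebellum. Every liver array was far above every brain array, and the brain signals stood close to the array medians. The difference of liver from the brain mean was 7.39 ± 0.23 (limma adjusted p = 3.16e-09), with no fold given because the brain side cannot be told from background. Without liver replicate 3, the highest of the liver arrays, it was 6.99 (adjusted p = 6.41e-13). On the 1X arrays the signals were 12.10 in liver, 3.73 in cortex and 3.65 in cerebellum, a difference of 8.41. In tissue RNA, fewer cells of a type and less RNA per cell cannot be told apart. The liver SD of 0.70 (n = 3) was exceeded by 1.49% of probe sets, whereas the cortex SD was 0.01 (n = 3), so the shared spread of the fit understates that of liver here.

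The second Fabp1 probe set gave a much smaller difference. It had 3.90, 3.92 and 3.60 on the 3X liver arrays, against 3.30, 3.02 and 3.33 in cortex and 3.32, 3.50 and 3.17 in cerebellum. Liver arrays were higher than all brain arrays by a narrow margin, with a difference of 0.53 ± 0.11 (adjusted p = 0.00591). At 1X its signals were 3.28 in liver, 3.28 in cortex and 3.14 in cerebellum, close together and below the array medians. Its call against cerebellum alone (0.48 ± 0.13; adjusted p = 0.0272) was lost when liver replicate 1 or 2 or cerebellum replicate 1 or 3 was left out (adjusted p from 0.0770 to 0.109). Averaged over both probe sets, the Fabp1 difference was 3.96 (adjusted p = 1.43e-09).

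Fabp5 was modestly higher in liver. Its signals on the 3X liver arrays were 7.89, 8.08 and 8.57, against 7.46, 7.61 and 7.68 in cortex and 7.57, 7.64 and 7.75 in cerebellum. All liver arrays were above all brain arrays, although liver replicate 1 exceeded the highest cerebellum array only slightly. The difference from the brain mean was 0.56 ± 0.13, a 1.48-fold higher signal (adjusted p = 0.0121), and 0.37 (adjusted p = 0.0170) without liver replicate 3. At 1X the signals were 9.36 in liver, 7.66 in cortex and 7.76 in cerebellum, a wider gap of 1.65. Set against single regions, the difference was 0.60 ± 0.15 from cortex (adjusted p = 0.0216) and 0.53 ± 0.15 from cerebellum (adjusted p = 0.0403), the second of which was 0.33 without liver replicate 3 (adjusted p = 0.0509). The cerebellum call held in the fit without liver replicate 1 and was lost without any of the other 8 arrays (adjusted p from 0.0509 to 0.123), and the cortex call was lost without cortex replicate 1 or 2 (adjusted p from 0.0511 to 0.0902). The 8 keratinocyte markers, from the cells that give Fabp5 its name, averaged 3.69 to 3.82 on the 3X liver arrays, 3.76 to 3.92 in cortex and 3.71 to 3.81 in cerebellum.

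Fabp7, the glial form, showed the clearest difference in the other direction. Its signals were 7.44, 7.10 and 6.94 on the 3X liver arrays, against 7.92, 8.03 and 8.31 in cortex and 8.14, 8.35 and 8.35 in cerebellum. Every liver array was lower than every brain array, yet the liver signals were far above the array medians. Without a detection call, that level does not show expression in liver. The hepatocyte marker Ahsg, for instance, averaged 6.39 in cortex at 3X. The difference was -1.02 ± 0.12, a 2.03-fold lower signal in liver (adjusted p = 0.000156), and -0.91 without liver replicate 3. At 1X the signals were 6.72 in liver, 8.99 in cortex and 9.23 in cerebellum, a difference of -2.39. Against single regions the differences were -0.93 ± 0.14 from cortex (adjusted p = 0.00103) and -1.12 ± 0.14 from cerebellum (adjusted p = 0.000298), and both calls held in every fit that left out 1 array. Of 10 astrocyte and radial glia markers, 4 were lower in liver, where 12.3% of all probe sets were. The other 6 were not called, and the median difference of the list was -0.08. Among the lower ones were the glycolytic enzyme Aldoc at -2.70 ± 0.08 and Glul, glutamine synthetase, at -0.62 ± 0.10 (adjusted p = 1.8e-09 and 0.00132). The liver signals of Aldoc and Glul were below the array medians, and for Aldoc so was the cortex signal, with cerebellum at about the median, so these sizes are uncertain. The other called genes, Aqp4 (-0.61 ± 0.16, adjusted p = 0.0185) and Slc1a2 (-0.61 ± 0.14, adjusted p = 0.00869), had mean 3X signals above the medians in all tissues. The mean signal of these 10 markers was 4.38 to 4.45 on the 3X liver arrays, 4.75 to 4.85 in cortex and 4.82 to 4.94 in cerebellum. Their part in the Fabp7 difference was not tested.

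Fabp3 was also lower in liver, by less. Its signals were 4.84, 4.64 and 4.52 on the 3X liver arrays, against 5.43, 5.07 and 4.99 in cortex and 5.16, 5.06 and 5.35 in cerebellum. No liver array reached the lowest brain array. The difference was -0.51 ± 0.12, a 1.42-fold lower signal in liver (adjusted p = 0.00970), and -0.44 (adjusted p = 0.0276) without liver replicate 3. At 1X the signals were 4.58 in liver, 6.18 in cortex and 5.94 in cerebellum, a difference of -1.47. The call against cortex (-0.50 ± 0.13; adjusted p = 0.0269) was lost without liver replicate 2 or 3 or cortex replicate 1 (adjusted p from 0.0565 to 0.101). The call against cerebellum (-0.52 ± 0.13; adjusted p = 0.0220) was lost without liver replicate 2 or cerebellum replicate 1 or 3 (0.0555 to 0.0916). Neuron markers moved with it, with mean signals of 4.71 to 4.98 on the 3X liver arrays, 5.87 to 6.24 in cortex and 5.79 to 5.99 in cerebellum, and the neuronal enolase Eno2 at -1.95 ± 0.17 with its liver signal below the array medians. Of 10 heart and skeletal muscle markers, tissues in which Fabp3 is abundant, 1 was called, where 20.4% of all probe sets were. It was the myosin gene Myh7 at -1.50 ± 0.08, again with a liver signal below the medians and a cerebellum signal near them. The part of either list in the Fabp3 difference was not tested.

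Fabp4 stayed at a dim level in all tissues. Its signals were 2.98, 3.36 and 2.95 on the 3X liver arrays, against 2.82, 3.00 and 2.87 in cortex and 3.00, 3.22 and 3.02 in cerebellum. All 12 values were below the array medians, and the liver arrays overlapped those of the brain regions. The difference was 0.11 ± 0.10, with a 95% confidence interval from -0.12 to 0.34 (adjusted p = 0.535). At 1X the values were 2.92 in liver, 2.75 in cortex and 2.82 in cerebellum. Adipocyte markers were dim on average as well, with mean signals of 3.49 to 3.67 on the 3X liver arrays, 3.48 to 3.61 in cortex and 3.56 to 3.63 in cerebellum. Of 9 measured, 1 was higher in liver (Pck1, a gluconeogenic enzyme of liver too) and 1 lower (Cidea). Of 10 endothelial markers, 1 was called, Eng (endoglin) at 1.64 ± 0.16. Of 12 macrophage markers 2 were higher in liver, among them the Kupffer cell receptor Clec4f, and 1 lower. Beside these counts of adipocyte, endothelial and macrophage markers, 20.4% of all probe sets were called, 8.17% higher in liver and 12.3% lower. The Clec4f signal was near the array medians in liver and below them in brain, so no size is given.

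**Figure D2:**
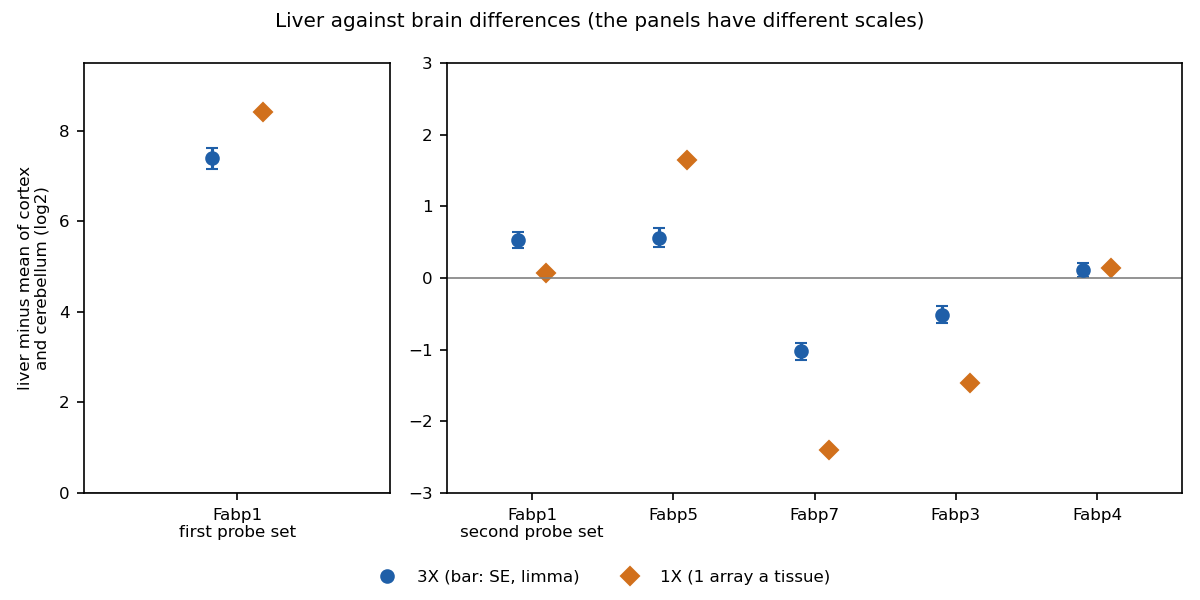
Difference of liver from the mean of cortex and cerebellum on the log2 scale (vertical axis) for each probe set, at 3X with the SE from limma (circles) and at 1X, with 1 array per tissue and no error (diamonds). The sign was the same at 1X and 3X for all 6, and the 1X difference of Fabp7 (-2.39), Fabp5 (1.65) and Fabp3 (-1.47) was farther from 0 than the 3X difference.

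The 1X arrays, which the tests above did not use, gave the same sign of the liver against brain difference for all 6 probe sets, as for 67.1% of all probe sets. The size was larger at 1X than at 3X for 5 of the 6, as for 62.6% of all and 57.2% of those called at 3X. The excess in size was 1.01 for the first Fabp1 probe set, 0.96 for Fabp3, 1.08 for Fabp5, 1.37 for Fabp7 and 0.02 for Fabp4. The second Fabp1 probe set went the other way, with 0.07 at 1X. With a single 1X array per tissue, these sizes have no replicate error.

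None of the 6 probe sets was called by limma between cortex and cerebellum at 3X, where 1.06% of all probe sets were called, and none had an unadjusted p under 0.05 (the lowest was 0.148). Fabp7 differed by -0.19 ± 0.14 between cortex and cerebellum (95% confidence interval from -0.51 to 0.12) and Fabp3 by -0.02 ± 0.13 (-0.32 to 0.27). For Fabp5 the difference was -0.07 ± 0.15 (-0.41 to 0.27), and for Fabp4 -0.19 ± 0.12 (-0.45 to 0.08). These intervals hold differences of up to about the size of the smaller liver differences. For Fabp1, the 3 cortex arrays of the first probe set were all below the 3 cerebellum arrays, with a difference of -0.17 ± 0.26 in a fit whose spread the liver arrays dominate. Without liver replicate 3 its adjusted p was 0.465. It and Fabp4 were the 2 probe sets whose arrays did not overlap, where 16.4% of all probe sets did not. The 1X difference had the opposite sign for both Fabp1 probe sets and for Fabp3, with 0.08, 0.13 and 0.24, and the same sign for the other 3, where 62.4% of all probe sets kept their sign. Kidney markers moved with the cerebellum label: 5 of 11 were lower in cortex at 3X, among them Kap at -1.04 ± 0.11, Slc34a1, a phosphate carrier of the proximal tubule, at -0.95 ± 0.10 with a cortex signal below the medians, and Pvalb, which cerebellar neurons also express, at -1.17 ± 0.14. Their mean signal was 3.73 to 3.80 in cortex and 4.27 to 4.32 in cerebellum. On the 1X arrays it was 3.53 in cortex and 4.65 in cerebellum. The part of these markers in the cerebellum signals of the members was not tested.

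Between 3X and 1X, over all tissues, Fabp3 was the member that was called. At 3X, 1 of the 6 probe sets was called against 1X in a fit that allows for tissue, where 56.9% of the whole table passed, with 37.5% higher and 19.5% lower. Over the whole table the median shift was 0.12 upward at 3X. Fabp3 fell by 0.56 ± 0.17 at 3X (limma adjusted p = 0.0192). It was not called with the 3 tissue differences as units (adjusted p = 0.158) or with signals below 3 raised to 3 (0.0508). Fabp4 was higher by 0.19 ± 0.09 (adjusted p = 0.0905), with all 3X arrays above the 1X array in each tissue. It was the 1 member whose 3X arrays lay on one side in all 3 tissues, as did 52.8% of all probe sets. The 1X signal lay outside the range of the 3X arrays for 5 of 6 members in liver, 4 of 6 in cortex and 6 of 6 in cerebellum, against 81.2%, 81.0% and 84.5% of all probe sets. Fabp5 stood at -0.45 ± 0.20 (adjusted p = 0.0675), Fabp7 at -0.47 ± 0.23 (0.0936), and Fabp1 at -0.25 ± 0.25 for the first probe set (0.403) and 0.22 ± 0.12 for the second (0.142). Fabp7 passed with a weight for each tissue in the fit (-0.71; adjusted p = 0.00583) or without liver replicate 1 (-0.55; 0.0407), and with the weights Fabp4 did too (0.20; 0.0499).

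For Fabp7 and Fabp3 the difference between 3X and 1X depended on the tissue. Fabp7 averaged 8.09 ± 0.20 in cortex and 8.28 ± 0.12 in cerebellum at 3X (SD, n = 3), against 8.99 and 9.23 at 1X. In liver it averaged 7.16 ± 0.26 at 3X, against 6.72 at 1X. The 3X arrays thus lay below the 1X array in both brain regions and above it in liver, and the 3X minus 1X difference was not the same in the 3 tissues (moderated F = 15.5; limma adjusted p = 0.0115). Fabp3 was lower at 3X in both brain regions as well and close to its 1X signal in liver, with 5.17 ± 0.23 at 3X against 6.18 at 1X in cortex, 5.19 ± 0.14 against 5.94 in cerebellum, and 4.67 ± 0.16 against 4.58 in liver (F = 9.22; adjusted p = 0.0495). These 2 probe sets of 6 were called, where 10.4% of all were. The Fabp3 call was lost under quantile normalization (adjusted p = 0.0638), with tissue weights (0.0902) and without any of 7 of the 9 3X arrays (0.0534 to 0.0880), the exceptions being liver replicate 3 and cortex replicate 1.

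Fabp5 and the first Fabp1 probe set, both higher in liver, lay farthest below their 1X signal in liver without passing the test. The second Fabp1 probe set went the other way in liver, with 3.81 ± 0.18 at 3X against 3.28 at 1X (F = 2.70, adjusted p = 0.476). Fabp5 averaged 8.18 ± 0.35 in liver at 3X, against 9.36 at 1X, while cortex (7.58 ± 0.11 against 7.66) and cerebellum (7.65 ± 0.09 against 7.76) moved little (F = 8.40; adjusted p = 0.0616). Fabp5 passed when the test ran on the 9614 probe sets whose names carry no letter suffix (adjusted p = 0.0474). The first Fabp1 probe set averaged 11.17 ± 0.70 in liver at 3X against 12.10 at 1X, 3.69 ± 0.01 in cortex against 3.73, and 3.86 ± 0.05 in cerebellum against 3.65 (F = 2.64; adjusted p = 0.487). The F values of Fabp5 and the first Fabp1 probe set moved with liver replicate 3, the 3X liver array nearest to the 1X signal for both. Leaving this array out widens the gap that the F tests and also narrows the liver part of the spread it is set against. The 3X liver arrays left were 10.74 and 10.80 for the first Fabp1 probe set, and 7.89 and 8.08 for Fabp5. A larger F then does not measure the gap alone. Without liver replicate 3 the F was 27.5 for Fabp5 (adjusted p = 0.00102) and 54.1 for the first Fabp1 probe set (8.09e-05).

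**Figure D3:**
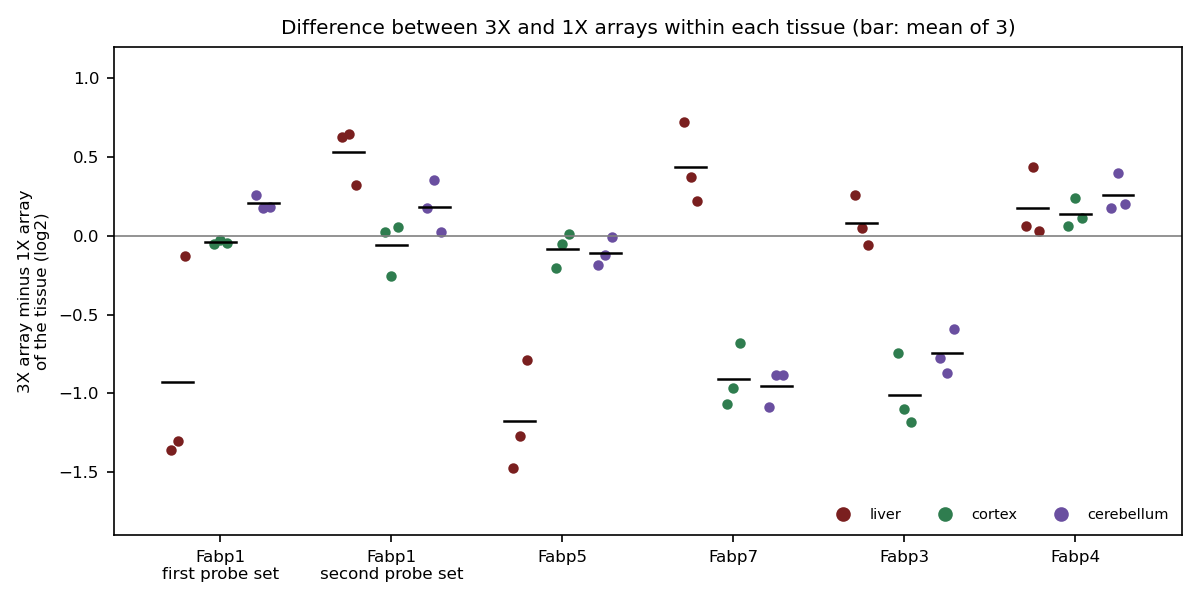
Each 3X array minus the 1X array of its tissue on the log2 scale (vertical axis) for each probe set, coloured by tissue, with the mean of 3 as a bar. Fabp7 and Fabp3 lie below 0 in cortex and cerebellum, with means from -1.01 to -0.75, and their liver means are 0.44 and 0.08, while Fabp5 and the first Fabp1 probe set lie farthest below 0 in liver, with means of -1.18 and -0.93.

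Members also differed in which other genes shared their profile over the 12 arrays, measured by Pearson's r of the log2 signals as a description of arrays that share an animal and a procedure. For the first Fabp1 probe set the 3 most similar genes were the hydroxysteroid dehydrogenase Akr1c6 (r = 0.999), the fibrinogen gamma chain Fgg (0.998) and albumin (Alb, 0.998). For Fabp5 they were Tram1, which acts in protein translocation into the endoplasmic reticulum (0.988), the peroxisomal enzyme catalase (Cat, 0.984) and Gucd1 (0.984). The nearest genes to Fabp7 were Zeb1, a transcription factor (0.980), Bin1, which shapes membranes (0.973), and Plekha1 (0.971). The nearest to Fabp3 were tau (Mapt, 0.972), Ylpm1 (0.964) and Slc22a17 (0.964). Fabp4, whose signal was dim, had lower values, with Tmem168 (0.941), G6pd2 (0.923) and Ndufaf1 (0.911). Of 10827 probe sets compared, r was above 0.9 for 175 with the first Fabp1 probe set, 271 with Fabp5, 130 with Fabp7, 138 with Fabp3 and 3 with Fabp4. Except for Fabp4, the named genes are thus the top of long lists and not particular partners. Among the members, r between Fabp3 and Fabp7 was 0.90 over the 12 arrays, and that between the first Fabp1 probe set and Fabp7 was -0.875.

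Other genes of fatty acid handling were compared between liver and brain at 3X, each by its probe set with the highest mean. Over all probe sets 20.4% were called in this comparison, 8.17% higher in liver and 12.3% lower. The other intracellular lipid-binding proteins, relatives of the family, had 1 call in 6 measured genes: the intestinal form Fabp2 was higher in liver by 0.72 ± 0.17 (adjusted p = 0.0134), at signals of 2.94 in liver, 2.23 in cortex and 2.21 in cerebellum, all below the medians. The median difference of the 6 was 0.06, against 0.01 over all probe sets. Of 14 genes of fatty acid uptake and activation, 5 were higher in liver and 2 lower, with a median of 0.07. Slc27a2, a transport protein and very long-chain acyl-CoA synthetase, was higher by 2.38 ± 0.18 with brain signals below the medians, and the sterol carrier protein Scp2 by 1.72 ± 0.17. The acyl-CoA synthetase Acsl5 (1.28 ± 0.27) and Hsd17b4 of peroxisomal oxidation (1.08 ± 0.24) were higher too, with adjusted p of 0.00900 or lower for these 4, the last pair at mean 3X signals below the medians in all tissues. The 2 lower genes, named after their values were seen, were the lipoprotein receptor Vldlr (-1.01 ± 0.13, liver signal below the medians) and lipoprotein lipase (Lpl, -0.59 ± 0.10). Between cortex and cerebellum 1 of the 14 was called, where 1.06% of all probe sets were. It was Slc27a2, which was lower in cortex by a difference of -1.17 ± 0.21 (adjusted p = 0.0219) at signals below the medians.

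Regulators and partners of these proteins had 6 of 23 higher in liver and 1 lower, with a median of 0.11. Over all probe sets 8.17% were higher and 12.3% lower. Ppara, the PPAR of fatty acid oxidation to which Fabp1 delivers ligands, was higher by 0.85 ± 0.13 (adjusted p = 0.000843), with mean 3X signals of 4.16 in liver, 3.28 in cortex and 3.34 in cerebellum, below the medians in brain. The liver factor Cebpa (0.89 ± 0.08), the oxysterol receptor Nr1h3 (0.88 ± 0.08) and the lipogenic factor Srebf1 (0.57 ± 0.08) were higher as well. The lower gene was the coactivator Ncoa1 at -0.30 ± 0.09, at signals below the medians in all tissues, named after its value was seen. These 3 lists were written with earlier results of these data known.

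**Figure D4:**
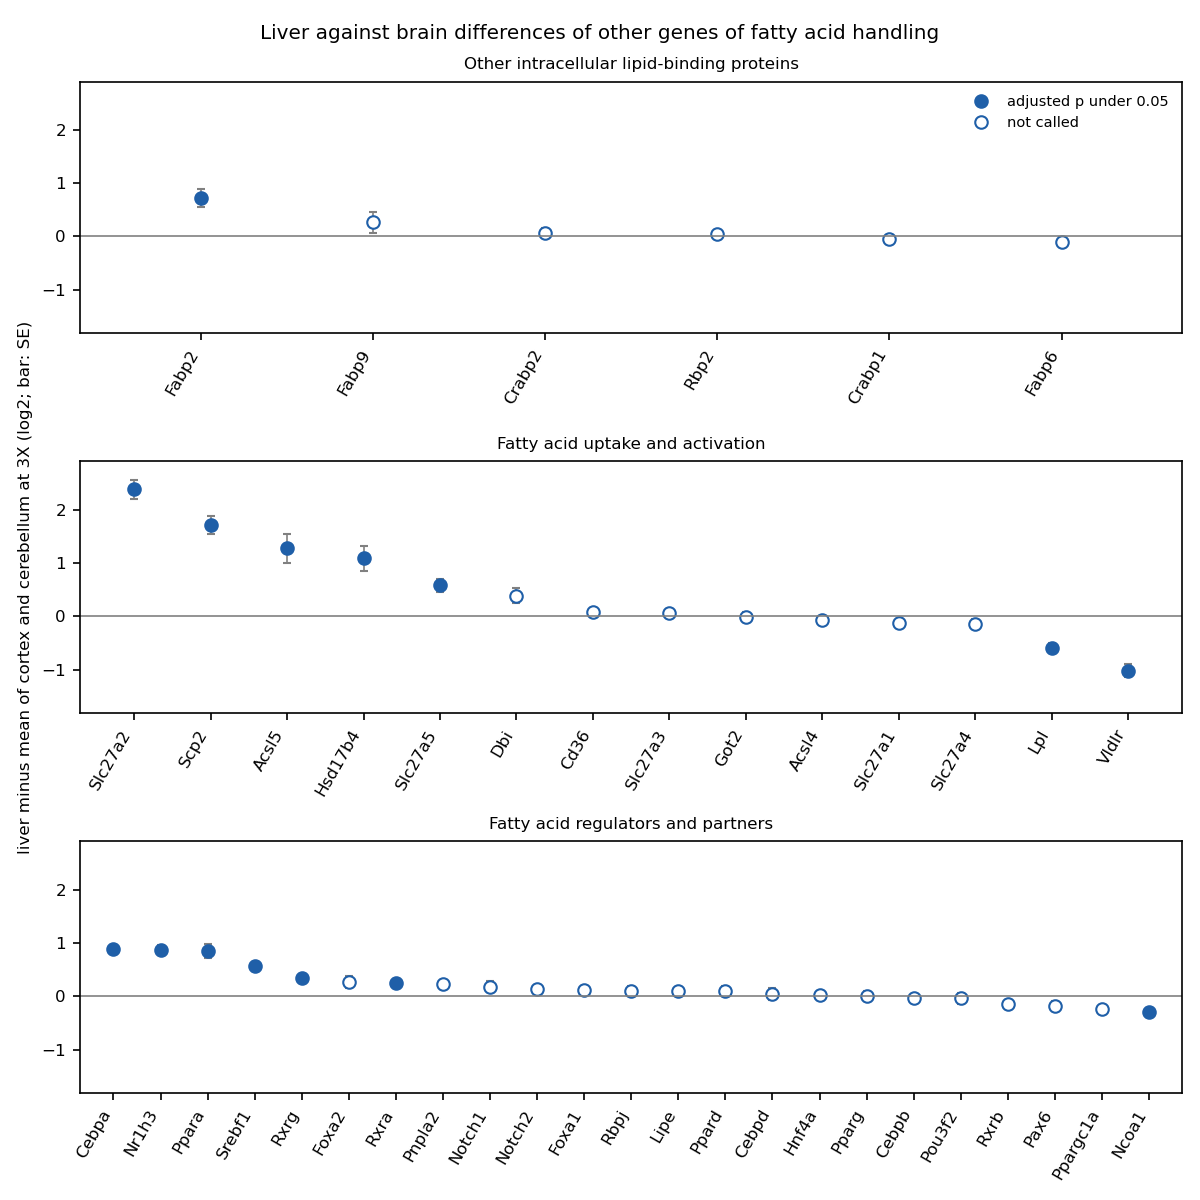
Difference of liver from the mean of cortex and cerebellum at 3X on the log2 scale (vertical axis, SE as bars) for the measured genes of the 3 lists (horizontal axis), filled where the limma adjusted p was under 0.05. Slc27a2 (2.38) and Scp2 (1.72) stand highest, Vldlr (-1.01) lowest, and most other genes lie near 0.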

How the data were processed

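Total RNA was measured on 12 Affymetrix MG_U74Av2 arrays in 6 groups. The deposited values hold a log2 signal for each probe set, which the authors computed by RMA, per the submitters' processing notes. RMA corrects background, aligns probe distributions by quantile normalization and summarises probes. The sources used here do not name its version or say if the 12 arrays were run together. The log base was taken from the highest value, 14.46, which exceeds the natural log of the largest 16-bit scanner value (11.09). The table held 12488 probe sets, of which 66 controls were left out. No arrays were identical. Groups came from the sample titles.

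Differences were fitted with limma 3.58.1 in R 4.3.3 (lmFit, eBayes, two-sided, Benjamini-Hochberg over 12422 probe sets). Tissue contrasts used the 9 3X arrays with a shared spread. The 3X minus 1X difference was additive with tissue over 12 arrays. Its tissue dependence was a moderated F test with 2 numerator degrees of freedom over the 6 groups, and each lone 1X array was taken to have the spread of the 3X replicates. Tissue differences at 1X had no test. For arrays, their number limits the precision.

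Genes were named from platform annotation: 10833 probe sets had 1 symbol, 396 several and 1193 none. All 6 member probe sets matched RefSeq by gene identifier. Named genes were all members, up to 4 of each list by the size of the liver against brain difference (up to 3 by cortex against cerebellum for the kidney list and some others), and the 3 most correlated genes of each member. Members and lists were chosen with earlier results of these data known. Lists were described by counts, without a set test. Scripts were tested on simulated arrays. Alternatives were other scalings, filters, fits and left-out arrays.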

Additional observations from a re-analysis of the deposited data

Results flagged for a closer look

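The difference between 3X and 1X, which covers input, kit and amplification rounds together, depended on the tissue for 2 probe sets by a moderated F test. For Fabp7 liver showed a 3X mean minus 1X signal of 0.44, cortex one of -0.91 and cerebellum one of -0.95 (limma adjusted p = 0.0115). For Fabp3 the values were 0.08 for liver, -1.01 for cortex and -0.75 for cerebellum (limma adjusted p = 0.0495). Each tissue had 1 array at 1X, so the 1X side of these differences has no replicate error. The Fabp3 call was lost under quantile normalization (adjusted p = 0.0638), with array weights by tissue (0.0902) and in 7 of the 9 fits that left out a 3X array.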

How the results depend on the processing

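Of 113 recomputed counts of called members, 91 stayed within 1.5 times the reported one. Of 660 recomputed member values 42 lost a call and 6 gained one. No called difference changed direction, which could not be asked of the F values of tissue dependence among the 660. With signals below 3 raised to 3, the calls were 3 for liver against brain, 3 against cortex, 2 against cerebellum and 0 for 3X against 1X (by limma; at an unadjusted p under 0.05, 1). The 6 arrays of liver and cortex alone gave 3 calls, with 1675 of all probe sets called, against 2082 in the main fit. With tissue differences as units, 3X against 1X gave 0 calls (by limma; at an unadjusted p under 0.05, 1). Array weights by tissue gave 3 calls for 3X against 1X and 1 for its tissue dependence, and quantile normalization gave 1 for that tissue dependence. Over all probe sets the calls there were 7615, 1149 and 1065, in that order. Leaving out single arrays gave 5 calls for liver against brain each time, 3 to 5 against cortex, 2 to 4 against cerebellum, 1 to 2 for 3X against 1X and 1 to 4 for its tissue dependence. Over all probe sets the calls in those fits were 2008 to 2905, 1475 to 2495, 1439 to 2511, 6696 to 7089 and 1132 to 1814, in that order. Except for the settings that test fewer probe sets, the causes were not tested.

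Over all probe sets, the counts moved by more than 1.5 times as follows. Testing only the 6211 probe sets above the median gave 1607 calls for liver against brain, 1347 against cortex, 1341 against cerebellum, 3685 for 3X against 1X and 804 for its tissue dependence. Raising low signals gave 1433, 1157, 1081, 72 for cortex against cerebellum and 4449 for 3X against 1X. Cortex against cerebellum gave 234 with array weights, 262 on its 6 arrays, and 82 to 250 with an array left out. Tissues as units gave 4690 for 3X against 1X. Replicate numbers of the 3X arrays were not taken as pairs in the main fits. Deviations of same-numbered arrays from their group means correlated at -0.0991 to 0.342, and those of other-numbered arrays at -0.359 to 0.248. The replicate 3 arrays had the highest values (0.294 to 0.342), so a shared replicate effect is not excluded. With the replicate number as a block, member calls stayed at 5, 5, 5 and 0 in the 4 tissue comparisons. All calls numbered 2729 for liver against brain, against 2537, and 170 between cortex and cerebellum, against 132. In that fit the limma adjusted p of Fabp5 for liver against brain was 0.00280, against 0.0121, and that of Fabp7 was 0.000531, against 0.000156. The 1X arrays carry no replicate number, so 3X against 1X had no such fit.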
